A study of Homo sapiens with 9 samples.

Results

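The genes described here encode 10 subunits of the SWI/SNF chromatin remodelling complexes, among them ARID1A, and were chosen by symbol from the 58735 genes of the deposited count table. All 10 were found, and all 10 were among the 16350 genes that passed the expression filter. Their RNA was compared in SKOV3 cells, an established ovarian cancer line, in 3 groups of 3 libraries. WT CDK9 cells (labelled WT) expressed wild-type CDK9 and were grown under basal conditions. ALK inhibitor-treated WT CDK9 cells (labelled Ai) expressed the same protein and received an ALK inhibitor for 24 h. Neither the compound used for these libraries nor its dose is named in the sources used here. Tyr19Phe CDK9 cells (labelled Y19F) expressed CDK9 with phenylalanine in place of the tyrosine that the study examined as a target of ALK, and were also grown under basal conditions. The study made such lines by putting CDK9 back into cells in which the endogenous gene was knocked down. The sources do not say how many independent lines stand behind a genotype, so the mutation and the line cannot be told apart.

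SWI/SNF complexes use the energy of ATP to slide or evict nucleosomes and so open DNA at promoters and enhancers. Each complex holds 1 of the mutually exclusive ATPases SMARCA4 (BRG1) and SMARCA2 (BRM), a core with SMARCC and SMARCD proteins, and subunits that set its class: ARID1A or ARID1B in canonical BAF, ARID2 and PBRM1 in PBAF. SMARCB1 and SMARCE1 belong to the core that canonical BAF and PBAF share, and non-canonical BAF, marked by BRD9, lacks both. Genes of these subunits are often mutated in cancers, and loss of ARID1A is known above all from ovarian clear cell and endometrioid carcinoma. CDK9 is the kinase of P-TEFb, which releases paused RNA polymerase II into elongation.

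Library totals ranged from 18169050 to 29320184 counts, and the Tyr19Phe CDK9 libraries were the deepest. Each of these held at least 26485891 counts, and every other library at most 20974903. Depth and genotype therefore cannot be told apart, and the part of depth in the values below was not tested. Even SMARCC1, the subunit with the fewest counts, had between 184 and 376 counts per library. CDK9 itself averaged 48.6 CPM (counts scaled to a common library size, per 1e6) in WT CDK9 cells, 45.6 CPM in inhibitor-treated cells and 55.0 CPM in Tyr19Phe CDK9 cells. In the edgeR test described below, CDK9 was higher in Tyr19Phe CDK9 than in inhibitor-treated cells (log2 fold change 0.27, adjusted p = 0.00961). It was not called in Tyr19Phe against WT CDK9 cells (0.18, adjusted p = 0.106) or under the inhibitor (-0.092, adjusted p = 0.665). Gene counts do not separate endogenous from re-expressed CDK9 and hold no base at codon 19, so they do not check the mutation. All 5 markers listed for SKOV3 cells (ERBB2, KRT8, KRT18, EPCAM and PAX8) passed the filter, and none of the 5 markers of blood, endothelial and muscle cells did. The highest of the latter was CDH5, with at most 35 counts in a library. CDH5 averaged 0 CPM in WT CDK9, 0.0183 CPM in inhibitor-treated and 0.787 CPM in Tyr19Phe CDK9 cells. Of the SKOV3 markers, ERBB2 (log2 fold change -0.29) and EPCAM (-0.82) were lower and KRT8 (0.38) and KRT18 (0.39) higher in Tyr19Phe than in WT CDK9 cells, each with an adjusted p of at most 1.76e-05, while PAX8 (-0.017, adjusted p = 0.848) was not called. Under the inhibitor ERBB2 alone of the 5 was called, at a log2 fold change of 0.54 (adjusted p = 2.96e-13). The part of such marker differences in the values below was not tested. The sources do not say that the 3 libraries of a group came from separate cultures, so p-values measure the spread between these libraries, which may be technical.

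Among the 10 subunits, SMARCD1 and the ATPase SMARCA4 gave the most RNA per length in WT CDK9 cells, and SMARCC1 and SMARCE1 gave the least. To compare genes, CPM was divided by the listed gene length in kilobases (CPM per kb). SMARCD1, a core subunit that links the complex to transcription factors, stood at 33.3 ± 0.509 CPM per kb (SD, n = 3). SMARCA4 followed with 19.4 ± 1.07 CPM per kb. ARID1A stood at 8.87 ± 0.168, PBRM1 at 8.14 ± 0.823, SMARCB1 at 6.31 ± 0.601 and ARID2 at 5.25 ± 0.262 CPM per kb. ARID1B reached 3.14 ± 0.0653, SMARCA2 1.80 ± 0.106, SMARCC1 1.48 ± 0.185 and SMARCE1 0.783 ± 0.0619 CPM per kb. None of the 9 pairs of neighbours in this order overlapped among the WT CDK9 libraries. The gap between ARID1A and PBRM1 was narrow, from a lowest ARID1A library of 8.68 to a highest PBRM1 library of 8.67 CPM per kb. Over all 9 libraries, 3 pairs overlapped: ARID1A with PBRM1, PBRM1 with SMARCB1, and SMARCA2 with SMARCC1. In Tyr19Phe CDK9 cells SMARCB1 (7.11 CPM per kb) stood above PBRM1 (6.37 CPM per kb) in the means, with overlapping libraries.

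Several subunits have paralogs outside the 10. SMARCC2, the paralog of the core scaffold SMARCC1, reached 14.9 CPM per kb in WT CDK9 cells, and its ratio to SMARCC1 per length was 10.1. SMARCD2 reached 31.3 CPM per kb, close to SMARCD1, while SMARCD3 stood at 0.929 CPM per kb. Listed lengths join all annotated exons of a gene, and those of ARID1B (44677 bases), SMARCE1 (18680 bases) and SMARCA2 (18595 bases) were the longest of the 10, so that rarely used exons lower their value per length. For SMARCE1, a core subunit with an HMG domain, 18.9% of the exon bases in GENCODE release 44 were shared with another gene on the same strand, and reads there could not be given to one gene. Its level is therefore uncertain. SMARCB1 shared 17.7% of its exon bases with DERL3 on the opposite strand, which matters if the counting ignored strand.

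**Figure D1:**
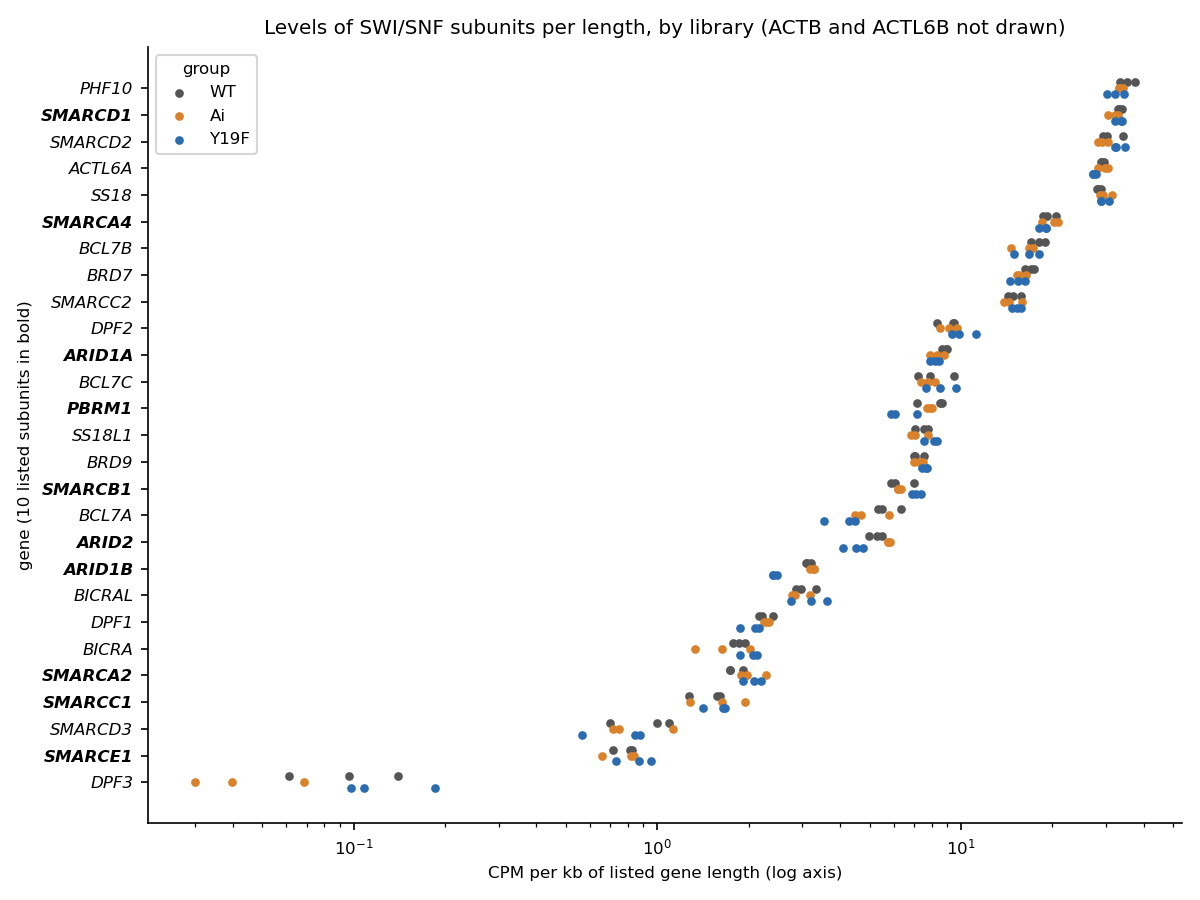
Each point is 1 library, with CPM per kb of listed gene length on a log axis and the genes ordered by their mean in WT CDK9 cells; the 10 subunits described here are in bold, and grey, orange and blue mark the WT, Ai and Y19F groups. SMARCD1 and SMARCA4 lie at the upper end and SMARCE1 near the lower end in every group.

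After 24 h of the ALK inhibitor, none of the 10 subunits passed the test against untreated WT CDK9 cells. Over all tested genes the inhibitor lowered 2.73% and raised 1.82% at an adjusted p under 0.05 (edgeR quasi-likelihood test, Benjamini-Hochberg adjustment over 16350 genes). That was 447 genes lower and 297 higher, a balance that turned to 344 lower and 406 higher with scaling by library size alone. DESeq2 also called 0 of the 10, and at an unadjusted p under 0.05 the edgeR test gave 1, SMARCA2. At that unadjusted threshold 1344 of all 16350 tested genes were lower and 1129 higher. The median log2 fold change of the 10 was 0.006, beside -0.001 for all tested genes.

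Gene counts do not show whether the ARID1A gene of these cells is intact or yields protein, so only its RNA is described. ARID1A, the subunit most tied to ovarian cancer, gave 126, 140 and 133 CPM in the inhibitor-treated libraries and 143, 138 and 142 CPM in the WT CDK9 libraries. The second treated library lay within the WT range and the other two below it. Its log2 fold change was -0.087 (SE 0.053, 95% interval from -0.195 to 0.021, adjusted p = 0.491). ARID1B differed by 0.053 (SE 0.051, adjusted p = 0.719).

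ARID2, which defines PBAF, gave 70.0, 69.9 and 70.6 CPM after treatment, against 66.5, 60.3 and 64.2 CPM without it. All 3 treated libraries stood above all 3 untreated ones, but the log2 fold change of 0.14 (SE 0.072) had an adjusted p of 0.36. SMARCA2 gave 42.5, 36.9 and 35.2 CPM against 32.2, 32.4 and 35.7 CPM, with 1 treated library inside the untreated range. Its log2 fold change was 0.19 (SE 0.093, 95% interval from 0.004 to 0.38), with an unadjusted p of 0.046 and an adjusted p of 0.319. Without Ai library 1, the highest, it was 0.11 (adjusted p = 0.72). SMARCD1 was the other gene whose groups did not overlap, at a log2 fold change of -0.064 (adjusted p = 0.603). Its lowest untreated and highest treated libraries both gave 170 CPM after rounding. The share of all tested genes without overlap was not computed, so no result is read from these separations. For SMARCA4, SMARCB1 and PBRM1 the 95% intervals lay between -0.2024 and 0.1263, so larger differences were outside the range the libraries allowed. For SMARCC1 and SMARCE1, with few counts, the intervals were wider and reached from -0.3098 to 0.4518.

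Tyr19Phe CDK9 cells differed from WT CDK9 cells in 4 of the 10 subunits. ARID1B, ARID2 and PBRM1 fell and SMARCB1 rose, while ARID1A, SMARCA2, SMARCA4, SMARCC1, SMARCD1 and SMARCE1 did not pass the test. The 3 lower genes stand beside 10.4% of all tested genes called lower, and the 1 higher gene beside 7.61% called higher. Over all genes 1695 were lower and 1245 higher, and with scaling by library size alone 1451 were lower and 1544 higher. The median log2 fold change of the 10 was -0.027, beside 0.003 for all tested genes. Bulk RNA does not tell fewer cells with a transcript from less of it per cell. Both comparisons with WT CDK9 cells use the same 3 WT libraries, so their values are given side by side and are not independent.

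**Figure D2:**
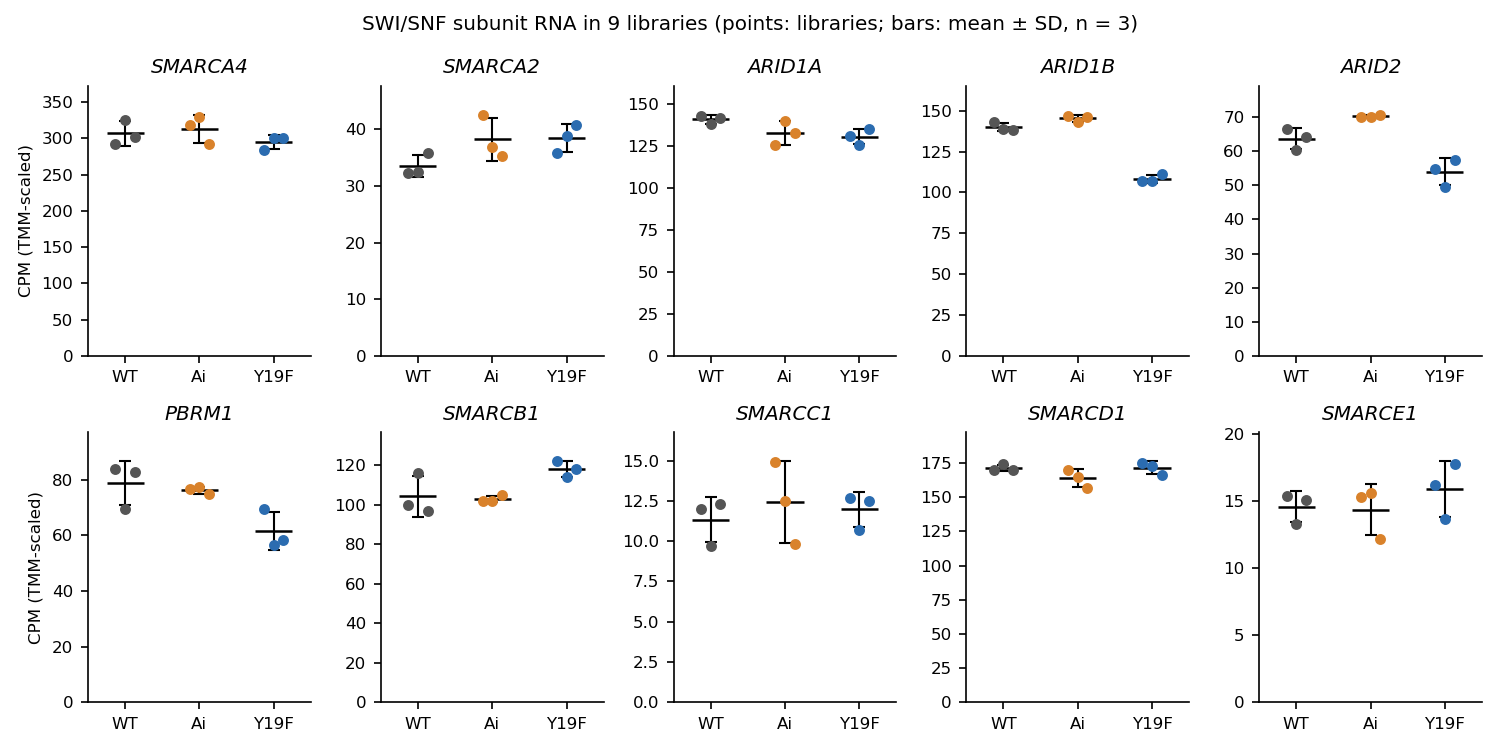
Each panel shows 1 subunit, with TMM-scaled CPM in each of the 9 libraries (points) and the mean ± SD of 3 libraries per group (bars), on axes that start at 0. ARID1B lies between 107 and 111 CPM in the Y19F libraries and at 138 CPM or above in the other 6, whereas SMARCA4 and SMARCD1 overlap between WT and Y19F.

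ARID1A and ARID1B are alternative subunits of canonical BAF, and only 1 of them sits in a given complex. ARID1B gave 107, 107 and 111 CPM in the Tyr19Phe CDK9 libraries, against 143, 139 and 138 CPM in the WT and 147, 143 and 146 CPM in the inhibitor-treated libraries. The Tyr19Phe CDK9 libraries were the lowest 3 of the 9, well apart from the rest. ARID1B fell by 22.7%, a log2 fold change of -0.37 (SE 0.050, 95% interval from -0.47 to -0.27, adjusted p = 1.38e-06), which ranked 311 by p among all tested genes. It was called in all 10 fits with other scaling, filters, tools or covariates and in all 6 fits with 1 library of the compared groups left out.

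ARID1A gave 131, 126 and 135 CPM in the Tyr19Phe CDK9 libraries, below the 138 to 143 CPM of the WT CDK9 libraries with no overlap. The difference was small, with a log2 fold change of -0.11 (SE 0.053, 95% interval from -0.22 to -0.0061), and did not pass at an adjusted p of 0.145. Once a trend with gene length was removed from each library, it was -0.026 (adjusted p = 0.802). A decrease of the size of that in ARID1B lay outside the interval. Against inhibitor-treated cells, ARID1A differed by -0.026 (SE 0.053, adjusted p = 0.79).

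The windows of 250 bases before the first RefSeq start of these paralogs (GRCh38.p14) differ in composition, and are shown because 1 of the pair passed the test and the other did not. Capitals mark GC boxes (GGGCGG or its reverse complement) and CCAAT boxes (CCAAT or its reverse complement) on either strand. The ARID1A window lies on the plus strand at chr1:26695765-26696014 and the ARID1B window on the plus strand at chr6:156775776-156776025.
ARID1A: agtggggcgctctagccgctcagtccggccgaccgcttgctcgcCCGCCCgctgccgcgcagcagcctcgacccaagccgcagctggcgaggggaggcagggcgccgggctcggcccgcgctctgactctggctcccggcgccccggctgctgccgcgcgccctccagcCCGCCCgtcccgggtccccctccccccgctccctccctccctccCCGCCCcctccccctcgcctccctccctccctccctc
ARID1B: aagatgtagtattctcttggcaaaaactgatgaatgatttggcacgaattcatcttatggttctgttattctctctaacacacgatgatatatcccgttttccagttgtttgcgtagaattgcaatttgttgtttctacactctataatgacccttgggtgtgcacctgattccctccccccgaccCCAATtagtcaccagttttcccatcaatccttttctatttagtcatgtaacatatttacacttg
The ARID1A window had a GC content of 80.4% with 30 CpG and 3 GC boxes. The ARID1B window had 38.8% with 5 CpG, no GC box and 1 CCAAT box. Of 27305 such windows, 42.2% held a GC box and 33.0% a CCAAT box, with a median GC content of 57.6%. RefSeq windows were matched for 8 of the 10 subunits, of which 5 held a GC box and 4 a CCAAT box. The windows of ARID1B and PBRM1, which fell, and of SMARCB1, which rose, each held 1 CCAAT box and no GC box. ARID1A, SMARCA2, SMARCA4, SMARCD1 and SMARCE1, which were not called, each held at least 1 GC box, and SMARCE1 also held 1 CCAAT box. ARID2 had no window. This split was noticed after the values were seen and carries no test. A match is a string of letters and was not tested as a binding site. ARID1B also has a second RefSeq start that is not shown, so its composition is given for 1 start only. Bases of these windows in GENCODE exons ranged from 0 for ARID1A and 6 for ARID1B to 163 for PBRM1 and all 250 for SMARCE1.

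Of the subunits particular to PBAF, ARID2 and PBRM1 were lower in Tyr19Phe CDK9 cells, while BRD7 (log2 fold change -0.14, adjusted p = 0.0674) and PHF10 (-0.13, adjusted p = 0.0891) did not pass. PBRM1 (BAF180), whose bromodomains bind acetylated histones, gave 69.4, 56.6 and 58.4 CPM in Tyr19Phe CDK9 libraries against 83.7, 69.5 and 82.6 CPM in WT CDK9 libraries. The second WT library stood apart from the other two and lay just above the highest Tyr19Phe CDK9 library. PBRM1 fell by 21.7%, a log2 fold change of -0.35 (SE 0.077, adjusted p = 0.00104), and was called in all 10 fits and in all 6 with 1 library left out.

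ARID2 (BAF200) gave 54.9, 49.6 and 57.5 CPM in Tyr19Phe CDK9 libraries, all below the 60.3 to 66.5 CPM of the WT CDK9 libraries. It fell by 15.3%, a log2 fold change of -0.24 (SE 0.071, adjusted p = 0.0165). This call was lost when a trend with gene length was removed from each library (log2 fold change -0.17, adjusted p = 0.097). It was also lost without WT library 1 (adjusted p = 0.108), WT library 3 (0.0571) or Y19F library 2 (0.136), with log2 fold changes from -0.23 to -0.18.

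In the shared core, 1 of the 4 genes passed, in the direction of an increase, beside the 7.61% of all tested genes called higher. SMARCB1 (INI1, SNF5), lost in rhabdoid tumours, gave 122, 114 and 118 CPM in Tyr19Phe CDK9 libraries and 100, 116 and 96.9 CPM in WT CDK9 libraries. The second WT library lay inside the Tyr19Phe range. SMARCB1 rose by 12.8%, a log2 fold change of 0.17 (SE 0.061, adjusted p = 0.0431). With the gene length trend removed the value was 0.26 (adjusted p = 0.0027). The call was lost in the fit of only the 2 compared groups (adjusted p = 0.0552) and without WT library 1 (0.173), WT library 3 (0.234), Y19F library 1 (0.15) or Y19F library 3 (0.0783).

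The genes around SMARCB1 on chromosome 22 were higher as well. Of 115 tested genes within 5 Mb of SMARCB1, 33 were called higher and 2 lower in Tyr19Phe CDK9 cells, and their median log2 fold change was 0.24, beside 0.17 for SMARCB1. Under the inhibitor the same neighbours had a median of -0.037, with 0 called higher and 2 lower. The part of the chromosomal region in the SMARCB1 value was not tested. For ARID1B, ARID2 and PBRM1 the medians of the neighbours were -0.023, -0.046 and -0.0043, and so lay near 0 while the genes themselves fell. SMARCA2 had the lowest neighbour median, -0.12 over 31 genes, while its own log2 fold change was 0.20.

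**Figure D3:**
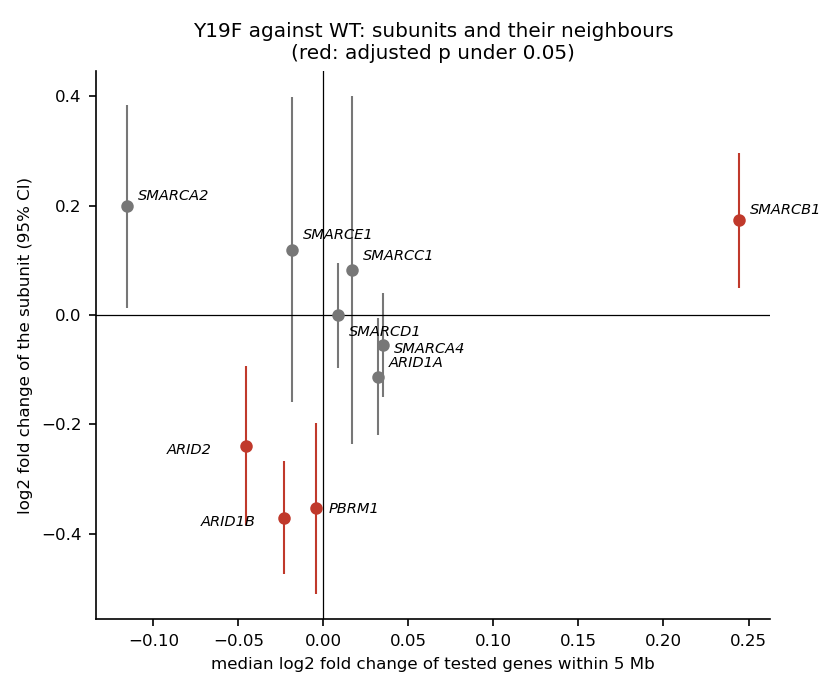
For each subunit, the horizontal axis gives the median log2 fold change of the tested genes within 5 Mb and the vertical axis its own log2 fold change with the 95% interval, in Tyr19Phe against WT CDK9 cells; red marks an adjusted p under 0.05. SMARCB1 stands alone at the right with a neighbour median of 0.24, and ARID1B, ARID2 and PBRM1 lie low near a neighbour median of 0.

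The other core genes gave no call. SMARCD1 had 175, 173 and 166 CPM in Tyr19Phe CDK9 libraries against 170, 174 and 170 CPM, with a log2 fold change of -4e-04 (95% interval from -0.097 to 0.096). SMARCC1 gave 12.7, 10.7 and 12.5 CPM against 12.0, 9.71 and 12.3 CPM (log2 fold change 0.082, adjusted p = 0.791), and SMARCE1 gave 16.2, 13.7 and 17.8 CPM against 15.4, 13.3 and 15.1 CPM (0.12, adjusted p = 0.628). Libraries overlapped for all 3 genes, and the value of SMARCE1 ranged from 0.0383 to 0.2218 over the alternatives. The intervals of SMARCC1 and SMARCE1 reached from -0.236 to 0.4005, so a change of the size seen in SMARCB1 could not be told from none.

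Neither ATPase passed the test. SMARCA4 gave 284, 301 and 301 CPM in Tyr19Phe CDK9 libraries within or just below the 293 to 326 CPM of WT CDK9 libraries (log2 fold change -0.054, SE 0.047, adjusted p = 0.494). SMARCA2 gave 35.7, 38.8 and 40.7 CPM against 32.2, 32.4 and 35.7 CPM, so that the groups touched. Its log2 fold change of 0.20 (SE 0.092) had an adjusted p of 0.141, and it passed once the gene length trend was removed (0.29, adjusted p = 0.0223).

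**Figure D4:**
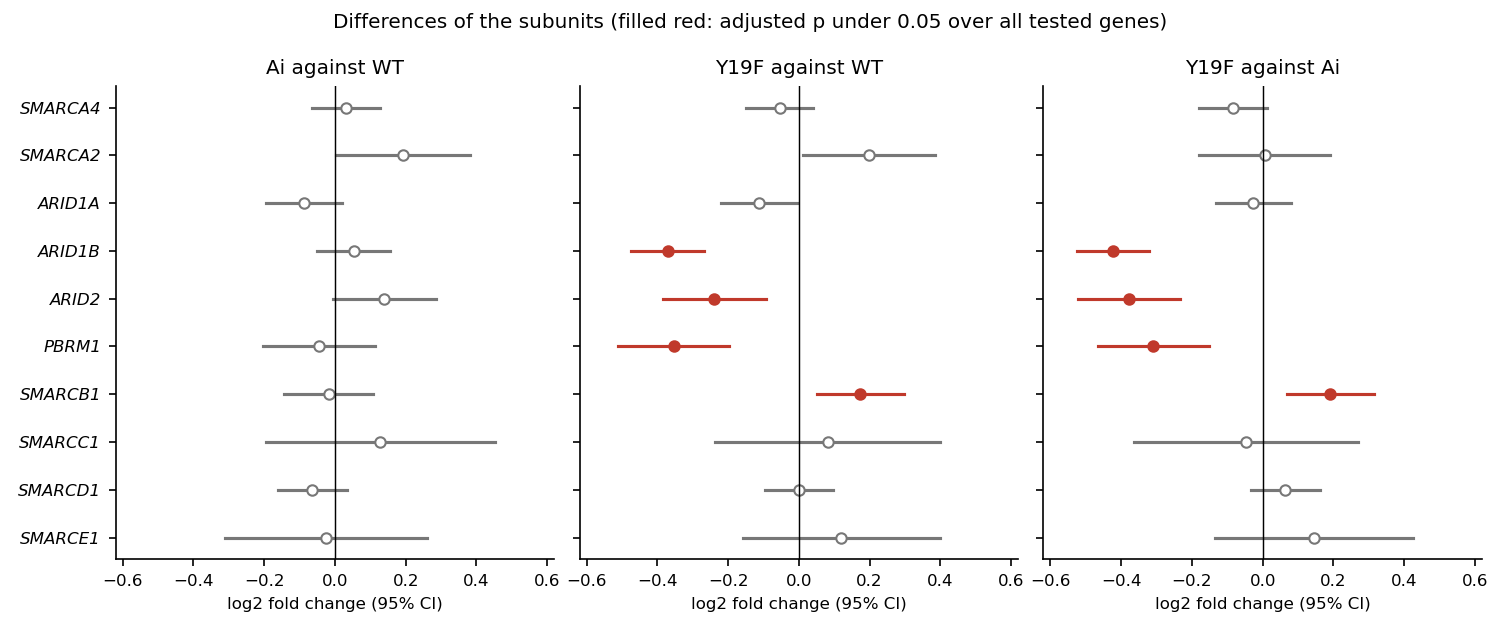
Points give the log2 fold change of each subunit with its 95% interval in the 3 comparisons, and filled red points passed at an adjusted p under 0.05 over all tested genes. No subunit passed under the inhibitor, and ARID1B, ARID2, PBRM1 (lower) and SMARCB1 (higher) passed in both comparisons of Tyr19Phe CDK9 cells.

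The 3 subunits that fell are long genes, and a larger share of long genes than of short genes was called lower in Tyr19Phe CDK9 cells. ARID1B spans 434.8 kb, ARID2 178.4 kb and PBRM1 140.6 kb of the genome, whereas SMARCB1 spans 51.08 kb. Of 1024 tested protein-coding genes spanning over 200 kb, 23.4% were called lower and 6.74% higher, with a median log2 fold change of -0.109. Of 1625 genes spanning 100 to 200 kb, 21.8% were called lower, and of 5407 genes up to 25 kb only 7.43%, with 10.9% higher. SMARCA2 (213.3 kb), SMARCC1 (196.8 kb) and SMARCA4 (118.6 kb) are also long and were not called. Under the inhibitor the share called lower was 2.74%, 3.14%, 4.06% and 4.39% from the shortest to the longest span group, the share called higher lay between 2.09% and 2.46%, and the medians lay between 0.0 and 0.009. The span groups were set after the values had been seen, and the part of gene span in the values of the 3 subunits was not tested.

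Tyr19Phe CDK9 cells were also compared directly with inhibitor-treated cells, which asks whether RNA levels differed between these groups. The same 4 subunits passed: ARID1B, ARID2 and PBRM1 were lower, beside 11.1% of all tested genes, and SMARCB1 was higher, beside 9.57%. ARID1B differed by -0.42 (SE 0.050, adjusted p = 1.02e-07), ARID2 by -0.38 (SE 0.071, adjusted p = 0.000157) and PBRM1 by -0.31 (SE 0.077, adjusted p = 0.00352). These 3 were called in all 10 fits and in all 6 with 1 library left out. SMARCB1 differed by 0.19 (SE 0.061, adjusted p = 0.0217), and its call was lost without Ai library 1 (0.0659), Ai library 2 (0.0628) or Y19F library 1 (0.0943). This contrast gave no call for ARID1A, SMARCA2, SMARCA4, SMARCC1, SMARCD1 or SMARCE1. It uses the same Tyr19Phe CDK9 libraries as the comparison with WT CDK9 cells, so the repeated calls are not independent.

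The RNA balance between alternative subunits was followed as a ratio of CPM per kb within each library. It does not give the balance of their proteins in the complexes. The ratio of ARID1A to ARID1B was 2.80, 2.79 and 2.90 in WT CDK9 libraries, 2.41, 2.76 and 2.54 in inhibitor-treated libraries, and 3.44, 3.29 and 3.41 in Tyr19Phe CDK9 libraries. The 3 groups did not overlap, with the inhibitor-treated libraries lowest and the Tyr19Phe CDK9 libraries highest. On the log2 scale the difference from WT was -0.141 for the inhibitor and 0.257 for Tyr19Phe CDK9, each with an exact two-sided permutation p of 0.1, the smallest that 3 against 3 libraries can give.

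The ratio of SMARCA4 to SMARCA2 was 10.8 in WT, 9.69 in inhibitor-treated and 9.08 in Tyr19Phe CDK9 cells. It was lower in every Tyr19Phe CDK9 library than in any WT library (log2 difference -0.252, exact permutation p = 0.1), and overlapped WT under the inhibitor (log2 difference -0.159, exact permutation p = 0.2). The ratio of PBRM1 to ARID2 was 1.55 in WT CDK9 cells. It was 1.36 in inhibitor-treated cells, without overlap (log2 difference -0.18, exact permutation p = 0.1), and 1.43 in Tyr19Phe CDK9 cells, with overlap (log2 difference -0.115, exact permutation p = 0.3). The ratio of SMARCC2 to SMARCC1, a pair added after the values were seen, was 10.1 in WT, 9.20 in inhibitor-treated and 9.76 in Tyr19Phe CDK9 cells, with overlap in every comparison (exact permutation p = 0.5 for the inhibitor and 0.8 for Tyr19Phe CDK9 against WT). With these library numbers no ratio could reach a p under 0.1.

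**Figure D5:**
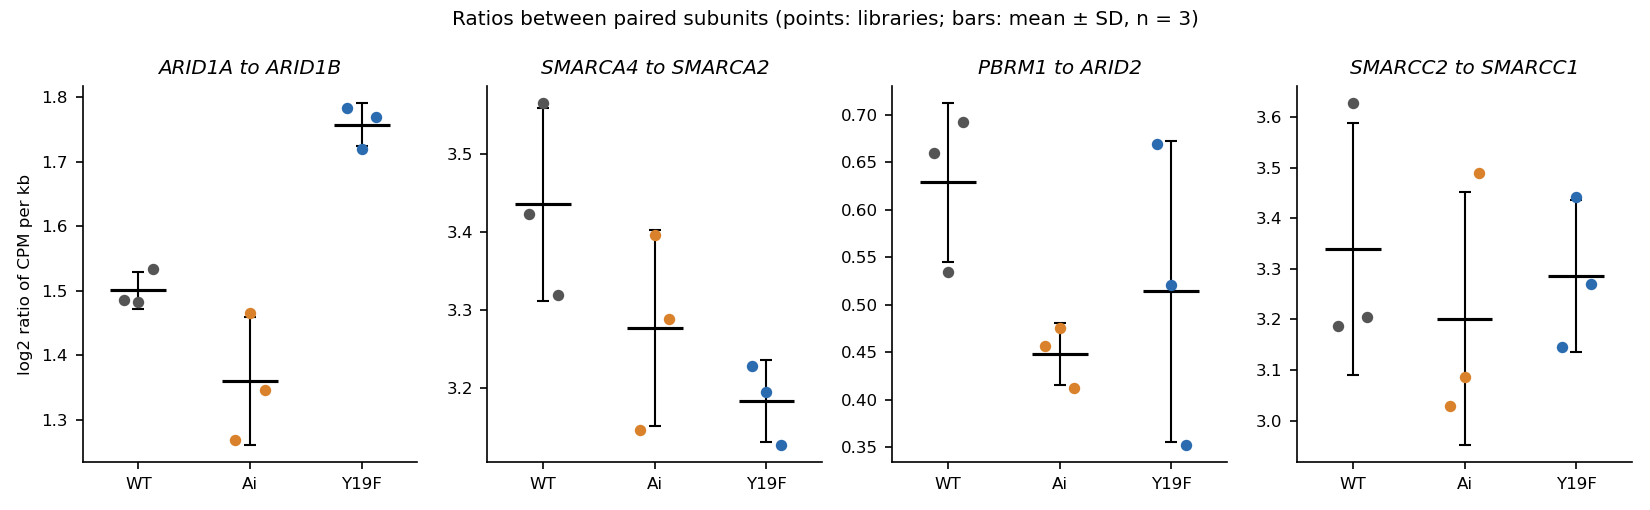
Points give the log2 ratio of CPM per kb within each library for 4 pairs of subunits, and bars the mean ± SD of 3 libraries; the vertical axes differ and do not start at 0. The ARID1A to ARID1B ratio separates all 3 groups, from a mean of 1.36 in Ai to 1.758 in Y19F.

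Of 19 further SWI/SNF subunits, 18 were tested, since ACTL6B, the neuronal actin-related subunit, had 0 counts. None passed under the inhibitor. In Tyr19Phe against WT CDK9 cells 1 of the 18 fell, beside 10.4% of all tested genes called lower, and 1 rose, beside 7.61% called higher. The median log2 fold change of the 18 was 0.061. BCL7A, an accessory subunit, fell from 34.9, 36.2 and 41.7 CPM to 28.0, 23.3 and 29.5 CPM, without overlap (log2 fold change -0.48, SE 0.11, adjusted p = 0.0013). ACTB, the actin that is also a SWI/SNF subunit and serves mostly in the cytoskeleton, rose from 6280, 6360 and 6260 CPM to 7560, 7210 and 7480 CPM (log2 fold change 0.24, SE 0.025, adjusted p = 1.55e-08). SMARCD2 was higher in the direct comparison with inhibitor-treated cells (log2 fold change 0.18, adjusted p = 0.0311), where ACTB was higher as well, and its call was lost without Ai library 1 (0.133), Ai library 2 (0.0784) or Y19F library 3 (0.146). For SMARCC2 and SMARCD3, which complete the SMARCC and SMARCD families, the log2 fold changes in Tyr19Phe CDK9 cells were 0.032 (adjusted p = 0.775) and -0.28 (adjusted p = 0.521).

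Lists of other chromatin regulators were read beside SWI/SNF. Their counts in Tyr19Phe against WT CDK9 cells stand beside 10.4% of all tested genes lower and 7.61% higher. Of 10 tested genes of the ISWI family, 5 were lower and 0 higher in Tyr19Phe against WT CDK9 cells. The 5 were SMARCA1, BPTF, BAZ2B, the ATPase SMARCA5 (SNF2H; log2 fold change -0.33, adjusted p = 5.92e-07) and BAZ1B, a partner of SMARCA5 (WSTF; -0.24, adjusted p = 0.000191). Of 20 CHD and NuRD genes 3 were lower, HDAC2, CHD3 (-0.43, adjusted p = 3.68e-06) and MTA3 (-0.31, adjusted p = 0.00484), and of 20 INO80 and SRCAP genes 1 was lower, YY1 (-0.20, adjusted p = 0.00397). Of 9 genes of the polycomb complex PRC2, which opposes SWI/SNF at many genes, 2 were lower, SUZ12 (-0.31, adjusted p = 4.2e-05) and EZH2 (-0.23, adjusted p = 0.0179), and PHF19 was higher (0.20, adjusted p = 0.0319). Under the inhibitor 1 of the tested genes on these 4 lists was called, beside 2.73% of all tested genes lower and 1.82% higher. It was SMARCA1, the other ISWI ATPase, higher at a log2 fold change of 0.27 (adjusted p = 0.0133). SMARCA1, BPTF, BAZ2B, HDAC2 and PHF19 were picked out after their values were seen. For comparison, SMARCA4 and SMARCA2, the ATPases of SWI/SNF, passed in no contrast without the removal of the length trend.

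Genes with the pattern most like that of a subunit were found by the root mean square difference of mean-centred log2 CPM over the 9 libraries. For ARID1A these were RAB11A (0.0208), SSB (0.0234) and BRD7 (0.0265), the last a PBAF subunit, where the median over all tested genes was 0.202. For ARID1B they were NEO1 (0.0361), DCTD (0.0371) and BAG5 (0.0376), with a median of 0.279. These distances describe 9 libraries, of which the Tyr19Phe CDK9 libraries were the deepest, and carry no test.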

How the data were processed

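A service provider sequenced RNA of SKOV3 cells, and hg38 was the reference. The submitters' processing notes list CASAVA, HISAT2 2.0.5 and featureCounts 1.5.0-p3, and strandedness and annotation release are not given in the sources used here. The deposited table holds whole-number counts of reads per gene and library, not normalized, with symbols, positions and lengths. Groups and replicate numbers came from the sample labels. The subunits, the gene lists and the tests were chosen with earlier results of these data known.

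edgeR 4.0.16 (R 4.3.3, limma 3.58.1) was used. Genes passed filterByExpr (minimum count 10, minimum total 15), libraries were scaled by TMM, and all 9 libraries entered a single quasi-likelihood fit with a mean for each group (6 residual degrees of freedom). The test moderates the spread of each gene with that of other genes, and intervals use its total degrees of freedom, not the residual ones alone. SE is the absolute log2 fold change divided by the square root of the F statistic. Adjusted p-values (Benjamini-Hochberg) run over all 16350 tested genes, and those under 0.05 were called. CPM is TMM-scaled, and log2 CPM used a prior count of 2. The code was tested on simulated data. Ratios between subunits were compared by exact two-sided permutation tests.

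The rule for naming genes was: all 10 subunits, the SMARCC and SMARCD paralogs, every other subunit called in any contrast, up to 2 called genes with the smallest adjusted p per list of other regulators, CDK9, and the 3 nearest patterns for ARID1A and for the subunit with the smallest adjusted p. Shared exons were measured in GENCODE release 44, where 58207 of 58735 identifiers matched. Promoter windows came from RefSeq (GRCh38.p14), and positions of genes from the deposited table. Figures were drawn in Python 3.11.15 with matplotlib 3.10.9. Alternatives were other scaling, DESeq2 1.42.0, other filters, only the compared groups, a replicate block, removal of a gene length trend, an unadjusted threshold and leaving out each library.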

Additional observations from a re-analysis of the deposited data

How the results depend on the processing

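The number of the 10 subunits called was 0 under the inhibitor in every alternative except the unadjusted p under 0.05, which gave 1. At that threshold 1344 of all 16350 tested genes were lower and 1129 higher. In Tyr19Phe against WT CDK9 cells the number called was 4, with a range of 2 to 4 when 1 library was left out. It fell to 2, ARID1B and PBRM1, without WT library 1 or WT library 3. Calls over all tested genes fell as well, from 1695 lower and 1245 higher of 16350 in the main fit. Without WT library 1, 1293 were lower and 887 higher of 17013, and without WT library 3, 1320 were lower and 935 higher of 17043. Removal of the gene length trend kept the number at 4 but exchanged ARID2 for SMARCA2. Same-numbered libraries did not deviate together (correlations from -0.0116 to 0.026), and a replicate block left the counts at 0 for the inhibitor, 4 for Tyr19Phe against WT and 4 for Tyr19Phe against inhibitor-treated cells. Other scalings moved the median of all genes by at most 0.0261 on the log2 scale. No called value changed its sign.

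With a window of 2 or 10 Mb in place of 5 Mb, 20 median log2 fold changes of neighbouring genes moved by more than their SD between libraries at 5 Mb, and 20 did not. With 2 Mb the moved values were, under the inhibitor, 0.0099 for ARID2, -0.0991 for SMARCA2, -0.0987 for SMARCB1, -0.0356 for SMARCC1 and 0 for SMARCE1, and in Tyr19Phe CDK9 cells -0.0753 for ARID2, -0.1895 for SMARCA2, 0.159 for SMARCB1, -0.0179 for SMARCD1 and -0.0406 for PBRM1. With 10 Mb they were, under the inhibitor, -0.0212 for SMARCA4, -0.0252 for SMARCC1, 0.0364 for SMARCD1 and -0.0065 for SMARCE1, and in Tyr19Phe CDK9 cells 0.0087 for ARID1B, -0.0174 for ARID2, 0.0715 for SMARCA4, 0.2019 for SMARCB1, 8e-04 for SMARCD1 and -0.0143 for PBRM1. The SD between libraries at 2 Mb exceeded the shift of SMARCA2 in both comparisons (SD 0.2099 and 0.1428). Under the inhibitor it also exceeded the shifts of SMARCB1 (0.0993) and ARID2 (0.0247). The cause of these shifts was not tested. The neighbours of SMARCB1 kept a median above 0 in Tyr19Phe CDK9 cells in all 3 windows.

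Low counts limit SMARCC1 and SMARCE1 most, with the widest intervals of the 10. The number of 3 libraries per group, 1 treatment time and unknown independence of the lines limit all comparisons, and counts per gene do not report protein, isoforms or sequence changes in the subunits.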
